A study of Mus musculus with 48 samples.

Results

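The interferon-induced genes examined here are 40 listed mouse genes whose transcription is raised by interferons, and 36 of them were measured, of the 12393 genes of the array. Each gene stood by the probe set with the highest mean signal over the 48 arrays, and 10 of the 36 had several probe sets to choose from. The other 4 listed genes, Ddx58, Ifi44, Isg15 and Xaf1, had no probe set of their own and were not analysed here. The list was chosen by what the genes are known to do and not by their values in these lungs, although results from the same lungs were known when it was drawn up.

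RNA abundance was measured in whole lung of 48 male C57BL/6 mice on Affymetrix arrays, 1 array per mouse and 8 mice in each of 6 groups. Regular weight (RW) mice were kept on a rodent diet with about 5 kcal% fat, and diet-induced obese (DIO) mice were fed 60 kcal% fat from the age of 6 weeks, for 9 weeks in all before exposure. From 15 weeks of age the mice breathed mainstream smoke (MS, the smoke drawn through a cigarette), sidestream smoke (SS, the smoke from its burning tip) or filtered air (SC, sham control) through the nose for 5 hours a day. There were 8 exposures in 2 weeks, 5 days in a row and then 3 days after a pause of 2 days, and the lungs were taken on the day after the last. The groups were DIO-MS, DIO-SS, DIO-SC, RW-MS, RW-SS and RW-SC, and a single array is named by its group and mouse number. No genetic change was introduced in any group. The account of the animals also speaks of a 4-day study with LPS, a bacterial product, and whether any of these mice took part in it was not stated. For mice 7 and 8 of both regular weight smoke groups the source label gives replicate 5 or 6 again, and the titles were followed in counting them as mice of their own.

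Interferons are secreted proteins by which cells warn each other of infection. Type I and type III interferons act through a complex that includes STAT2 and IRF9 and binds the interferon-stimulated response element (ISRE), and type II interferon (interferon gamma, made mainly by T and NK cells) acts mainly at the gamma-activated sequence (GAS). The genes they induce include antiviral effectors, sensors of foreign nucleic acid, GTPases that attack the vacuoles of intracellular parasites, and the chemokines CXCL9, CXCL10 and CXCL11, which draw T and NK cells through the receptor CXCR3. In lung many of these genes are known to rise sharply in infection.

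Values below are log2 RMA signals, and since probes differ in brightness only the same gene is compared between arrays. A log2 difference is followed by its standard error from limma, and a gene was called at an adjusted p below 0.05, Benjamini-Hochberg adjusted over the 12393 genes within a comparison. The tissue label fitted its markers, as the mean signal of 10 type 2 alveolar cell markers lay between 12.6 and 13.5 in all 48 arrays. An array of RNA from whole lung cannot tell a change in RNA per cell from a change in how many cells of a type are present. Of the arrays that stood apart in other genes, DIO-SC-7 had a mean of 10.37 over 6 thymocyte markers, where the median of its group was 5.56, and DIO-SC-3 had 12.46 over 8 skeletal muscle markers, where that median was 6.53. RW-SS-6 had 10.86 over 6 adipocyte markers, where the median of its group was 5.64. Results are given without these 3 arrays where they bear on a call.

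With all arrays, 19 of the 36 genes were called higher and 0 lower in DIO-MS than in DIO-SC, where 11.7% of all genes were called higher. The median log2 difference of the 36 genes was 0.80, against -0.02 over all genes. In RW-MS against RW-SC 1 gene, Cxcl10, was called higher (6.61% of all genes) and the median difference was 0.09. That median rested on single arrays, at 0.16 without RW-SC-4 and -0.06 without RW-MS-7. Sidestream smoke gave 0 calls in either diet, in DIO-SS against DIO-SC (6.85% of all genes called in either direction) and in RW-SS against RW-SC (2.17% of all genes). By limma 0 and 1 of the 36 genes reached an unadjusted p below 0.05 in these sidestream comparisons of obese and regular weight mice, and by the exact rank sum test 2 (4.28% of all genes in either direction) and 0 (1.62% of all genes) were called. Those 2 were Ifih1 and Irgm1, both higher in DIO-SS. All 6 GTPases had a higher mean in sidestream smoke than in air, with medians of 0.39 in obese and 0.35 in regular weight mice. RW-SS-8, high in these genes, is in the latter. Over the 36 genes 30 and 15 differences were positive. DIO-MS-1 and DIO-MS-6 carried most of the calls in obese mainstream smoke lungs: without them 3 of the 36 genes, Cxcl10, Lgals3bp and Ifih1, were called higher, where 9.02% of all genes were, and the median difference was 0.14.

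**Figure D1:**
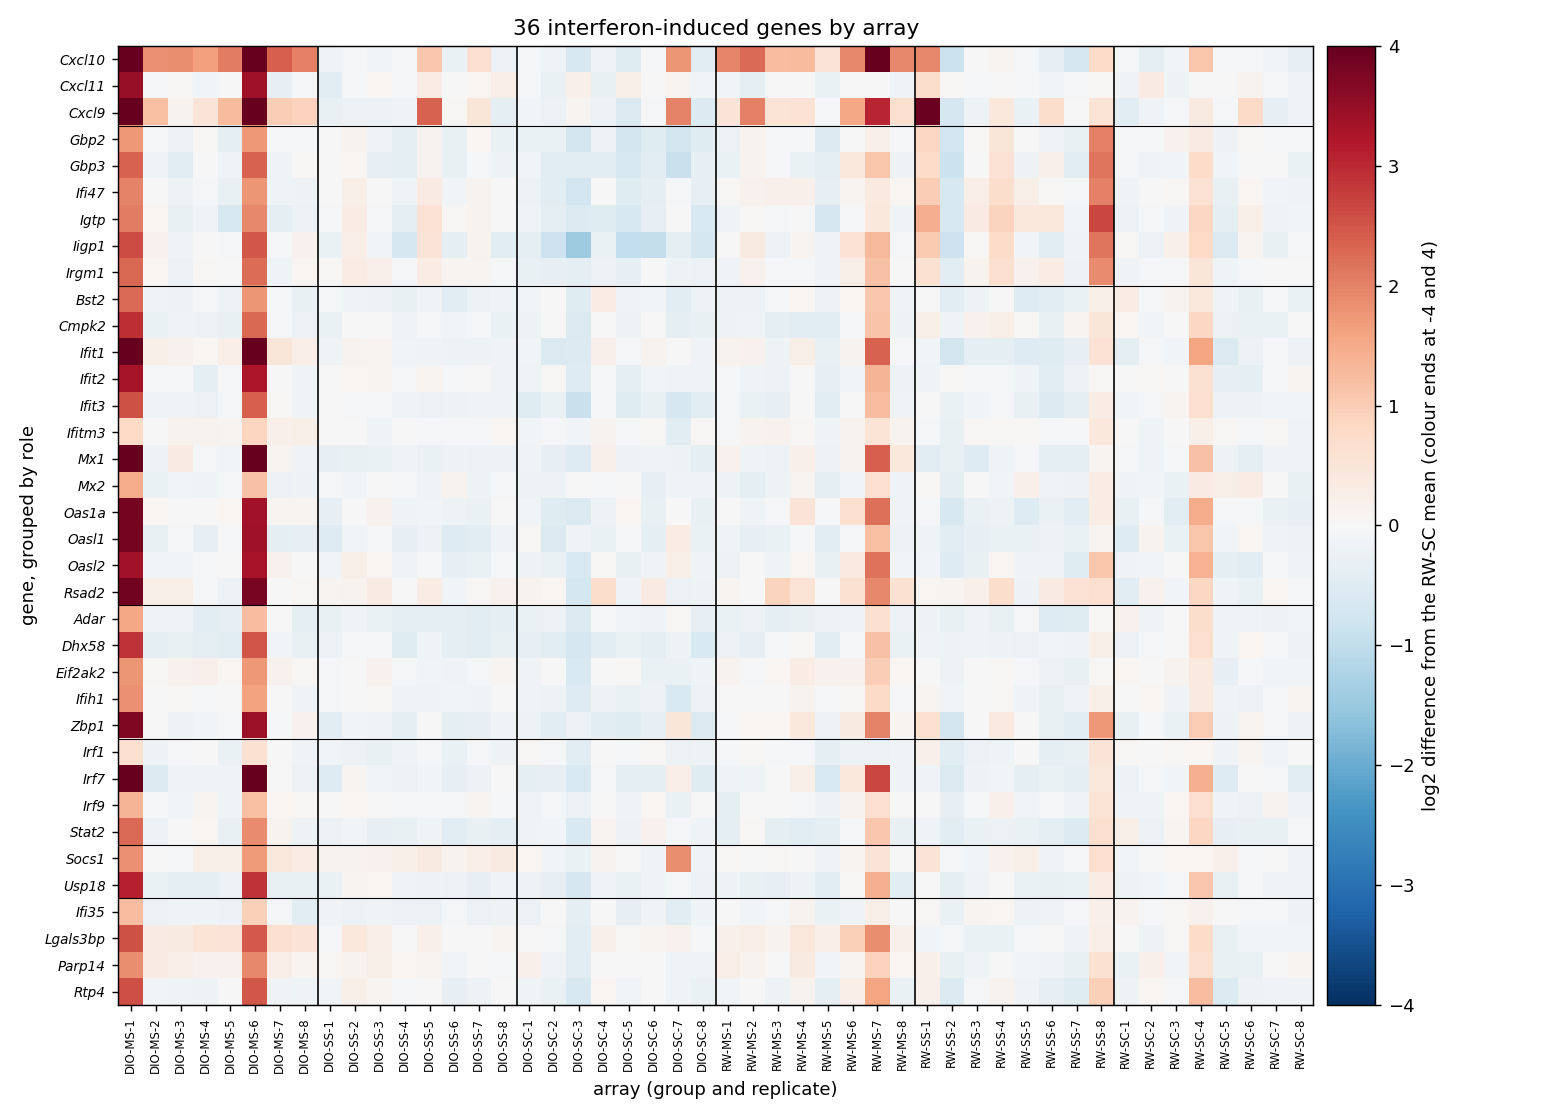
Log2 difference of each of the 36 interferon-induced genes (rows, grouped by role) from the RW-SC mean in each of the 48 arrays (columns, grouped by diet and exposure, with black lines between groups). DIO-MS-1 and DIO-MS-6 are red in every row, RW-MS-7 and RW-SC-4 are red in most rows, RW-SS-8 is reddest in the 6 GTPase rows, and Cxcl10 is raised along most of both mainstream smoke groups.

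The chemokine Cxcl10 was high in most mainstream smoke mice of both diets. It had 7.59, 7.99 and 13.14 (lowest, median and highest array) in DIO-MS, against 5.33, 5.78 and 7.73 in DIO-SC. In RW-MS it had 6.47, 7.89 and 10.66, against 5.57, 5.87 and 7.05 in RW-SC. In each diet 7 of the 8 mainstream smoke arrays lay above every air array; the exceptions were DIO-MS-4, which lay below DIO-SC-7, and RW-MS-5, which lay below RW-SC-4.

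The log2 difference of Cxcl10 was 3.30 ± 0.60 in DIO-MS against DIO-SC, 9.85-fold (limma adjusted p = 3.8e-05), and 1.97 ± 0.60 in RW-MS against RW-SC, 3.93-fold (limma adjusted p = 0.019). Without DIO-MS-1 and DIO-MS-6 the obese difference was 2.00 ± 0.40, 3.99-fold (limma adjusted p = 0.00028). The Cxcl10 response of obese mice exceeded that of regular weight mice by 1.33 ± 0.84 (limma adjusted p = 0.50) with all arrays. Without DIO-MS-1 and DIO-MS-6 it did so by 0.02 ± 0.54 (limma adjusted p = 0.99). That comparison left out high arrays of the obese mice only and kept RW-MS-7, the highest RW-MS array. Without RW-MS-7 the regular weight difference was 1.58 ± 0.58 and missed the threshold (limma adjusted p = 0.072).

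Mainstream smoke also stood above sidestream smoke in Cxcl10. All 8 DIO-MS arrays lay above all 8 DIO-SS arrays, which had 5.69, 5.86 and 7.04, with a difference of 3.16 ± 0.60 (limma adjusted p = 0.00011). RW-SS had 5.08, 5.93 and 7.86, and the difference of RW-MS from RW-SS was 1.87 ± 0.60 (limma adjusted p = 0.035), with 5 of 8 RW-MS arrays above every RW-SS array. Over the 36 genes 9 were called higher in DIO-MS than in DIO-SS (8.83% of all genes were), with a median difference of 0.64. Without either DIO-MS-1 or DIO-MS-6 2 were, and without both 1 was (4.76% of all genes), with a median of 0.02. In RW-MS against RW-SS 1 gene, Cxcl10, was called higher (6.05% of all genes). The call in regular weight mice was lost when any of 8 single arrays was left out, and without RW-MS-7 the difference was 1.48 ± 0.58 (limma adjusted p = 0.12).

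Cxcl9, which like Cxcl10 attracts T and NK cells but is known as mainly a target of interferon gamma, varied more from mouse to mouse. It had 5.90, 6.84 and 12.08 in DIO-MS, against 5.18, 5.58 and 7.72 in DIO-SC. It had 5.68, 6.36 and 8.79 in RW-MS, against 5.35, 5.64 and 6.52 in RW-SC. DIO-MS-1 and DIO-MS-6 alone lay above every DIO-SC array, and 3 of 8 RW-MS arrays lay above every RW-SC array. The difference was 2.15 ± 0.65 in obese mice (limma adjusted p = 0.014) and 0.81 ± 0.48 (limma adjusted p = 0.29) without those 2 arrays, and in regular weight mice it was 1.10 ± 0.65 (limma adjusted p = 0.28). The exact rank sum test called Cxcl9 in obese (adjusted p = 0.044) and in regular weight mice (adjusted p = 0.043). Even the lowest DIO-MS array lay above every DIO-SC array other than DIO-SC-7. The highest DIO-SC array for Cxcl9 and Cxcl10 was DIO-SC-7, the array with thymocyte markers, and without it, DIO-SC-3, RW-SS-6 and both high DIO-MS arrays the Cxcl9 difference in obese mice was 1.14 (limma adjusted p = 0.11).

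Cxcl11, the remaining ligand of CXCR3, was at 8.08 in DIO-MS-1 and between 4.28 and 4.64 in the 6 DIO-MS arrays other than DIO-MS-1 and DIO-MS-6. Its highest array was 4.85 in DIO-SC, 4.63 in RW-MS and 4.94 in RW-SC. The difference of 0.81 ± 0.33 in DIO-MS against DIO-SC was not called (limma adjusted p = 0.076), and a dimmer probe set of the same gene gave 0.03 ± 0.07. So of the 3 chemokines Cxcl10 alone was called by limma in regular weight mice, and its promoter is shown first below.

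The promoters of the members hold the letters of these elements in different arrangements, and the stretches below were chosen to show the chemokine, an antiviral effector of each of 2 families and the 4 GTPases with a match. They are RefSeq sequences on GRCm38.p6, read 5′ to 3′ along the gene and ending before an annotated RefSeq start, from which distances are counted. For Oas1a and Gbp3 this start lies inside the outermost bounds of the gene, and so does part of the stretch. Capitals mark the ISRE-type letters GAAANNGAAA on either strand (TTTCNNTTTC where the gene's strand carries the complement), in Cxcl10 also the NF-kappa-B consensus, and in Igtp also the GAS-type letters TTCNNNGAA; overlapping matches run together.
Cxcl10 (chr5:92348971-92349114, - strand of the genome): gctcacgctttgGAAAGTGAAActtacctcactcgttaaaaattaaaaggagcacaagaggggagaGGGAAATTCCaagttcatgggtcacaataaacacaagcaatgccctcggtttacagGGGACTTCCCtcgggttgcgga
Ifit1 (chr19:34640773-34640825, + strand of the genome): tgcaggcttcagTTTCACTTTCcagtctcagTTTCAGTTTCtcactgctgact
Oas1a (chr5:120907526-120907557, - strand of the genome): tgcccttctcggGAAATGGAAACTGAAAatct
Gbp2 (chr3:142620592-142620625, + strand of the genome): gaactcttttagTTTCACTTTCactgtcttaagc
Gbp3 (chr3:142559987-142560026, + strand of the genome): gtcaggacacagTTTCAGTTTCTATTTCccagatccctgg
Igtp (chr11:58199499-58199543, + strand of the genome): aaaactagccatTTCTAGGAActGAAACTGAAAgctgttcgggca
Irgm1 (chr11:48871423-48871462, - strand of the genome): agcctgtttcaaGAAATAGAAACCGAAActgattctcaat

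In Cxcl10 the ISRE-type match began 213 bases before the start and the 2 NF-kappa-B matches 159 and 103 bases before it. The GTPase genes Gbp2, Gbp3, Igtp and Irgm1 had their ISRE-type matches within 59 bases of the start, and Ifit1 had 2 at 104 and 85 bases. Of the 36 measured genes 27 had a promoter entry, and 12 of the 27 held an ISRE-type match in the 250 bases before the start, against 3.46% of all 27025 genes with an entry. GAS-type letters, which read the same on both strands, were found in 6 of the 27 and in 8.13% of all those genes, and the NF-kappa-B consensus in 4 of the 27 and in 4.46%. A match of letters is a description and not a bound site. Mx1, Mx2, Usp18, Dhx58, Zbp1, Iigp1, Cxcl11, Parp14 and Rtp4 had no entry.

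Among the 12 antiviral effectors 6 were called higher in DIO-MS than in DIO-SC (11.7% of all genes). In RW-MS against RW-SC 0 of the 12 were, near the 6.61% of all genes. Ifit1, which binds foreign RNA caps and blocks their translation, had 8.94, 9.13 and 13.11 in DIO-MS, against 8.30, 8.80 and 9.06 in DIO-SC. In RW-MS it had 8.57, 9.02 and 11.24, against 8.30, 8.71 and 10.45 in RW-SC. DIO-MS-1, at 13.11, and DIO-MS-6, at 13.02, stood far above the other 6 DIO-MS arrays, which reached at most 9.35; 4 of those 6 still lay above every DIO-SC array. The difference was 1.37 ± 0.43 in obese mice (limma adjusted p = 0.017) and 0.38 ± 0.26 (limma adjusted p = 0.37) without the 2 arrays, and 0.31 ± 0.43 in regular weight mice (limma adjusted p = 0.70).

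Mx1, a dynamin-like GTPase against influenza viruses whose gene carries an inactivating deletion in C57BL/6 mice, had 4.44, 4.67 and 9.51 in DIO-MS, against 4.15, 4.44 and 4.86 in DIO-SC. It had 4.41, 4.82 and 7.05 in RW-MS, against 4.30, 4.50 and 5.82 in RW-SC. The highest arrays were DIO-MS-1 at 9.51, DIO-MS-6 at 9.19, RW-MS-7 at 7.05 and RW-SC-4 at 5.82, and the remaining arrays of these groups overlapped. The difference was 1.38 ± 0.48 in obese mice (limma adjusted p = 0.031) and 0.20 ± 0.23 (limma adjusted p = 0.64) without DIO-MS-1 and DIO-MS-6. The further effectors called in obese mice with all arrays were Oas1a, an oligoadenylate synthetase, at 1.18 ± 0.39, Ifit3 at 0.97 ± 0.28, Ifit2 at 0.91 ± 0.34 (a call lost when any of 39 single arrays was left out, with 0.53 and adjusted p = 0.20 by limma without DIO-MS-1), and Ifitm3, a membrane protein that blocks virus entry, at 0.37 ± 0.10. The effectors Oasl1, Oasl2, Mx2, Rsad2, Bst2 and Cmpk2 were not called there, with differences between 0.34 and 0.999. Without the 2 arrays 0 of the 12 were called, near the 9.02% of all genes.

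The 5 sensors of foreign nucleic acid gave 4 calls in DIO-MS against DIO-SC (11.7% of all genes called higher). In RW-MS against RW-SC they gave 0, near the 6.61% of all genes. Ifih1, which encodes the RNA sensor MDA5, had 9.44, 9.61 and 11.41 in DIO-MS, against 8.97, 9.35 and 9.43 in DIO-SC. All 8 DIO-MS arrays lay above all 8 DIO-SC arrays, the nearest values being 9.44 and 9.43. The difference of 0.72 ± 0.18 (limma adjusted p = 0.0028) was 0.28 ± 0.10 (limma adjusted p = 0.042) without DIO-MS-1 and DIO-MS-6, and 0.19 (limma adjusted p = 0.17) when DIO-SC-3, DIO-SC-7 and RW-SS-6 were left out as well. In sidestream smoke 7 of 8 DIO-SS arrays also lay above every DIO-SC array. Their difference from DIO-SC was 0.23 ± 0.18 (limma adjusted p = 0.46), called by the exact rank sum test (adjusted p = 0.016). DIO-SC had the lowest Ifih1 mean of the 6 groups, at 9.28, against 9.58 in RW-SC. The other sensors called in DIO-MS against DIO-SC were Eif2ak2, the RNA-activated kinase PKR, at 0.70 ± 0.18, Dhx58, a helicase related to MDA5, at 0.86 ± 0.31, and Zbp1, which senses nucleic acid in the Z form, at 1.15 ± 0.41. The Dhx58 call was lost when any of 5 single arrays was left out and the Zbp1 call when any of 6 was, with differences of 0.51 and 0.74 without DIO-MS-1. The RNA editing enzyme Adar was not called (0.38 ± 0.18, limma adjusted p = 0.15), and none of these 4 was called without the 2 arrays, though Eif2ak2 was near the threshold (limma adjusted p = 0.057).

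The 4 transcription factors gave 0 calls in mainstream smoke against air in either diet. This is near the shares of all genes called higher (11.7% in DIO-MS, 6.61% in RW-MS). Irf7, the factor that amplifies type I interferon, had 7.83, 8.19 and 12.94 in DIO-MS, against 7.75, 7.99 and 8.65 in DIO-SC. It had 7.76, 8.30 and 11.05 in RW-MS, against 7.84, 8.28 and 9.78 in RW-SC. Its difference was 1.23 ± 0.49 in obese mice (limma adjusted p = 0.064), and 0.08 ± 0.28 without DIO-MS-1 and DIO-MS-6, the 2 DIO-MS arrays that lay above every DIO-SC array.

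Stat2, the subunit that IRF9 binds, had 7.88, 8.20 and 10.44 in DIO-MS, against 7.58, 8.03 and 8.35 in DIO-SC, and its difference was 0.58 ± 0.25 (limma adjusted p = 0.094). In regular weight mice it had 7.73, 7.86 and 9.25 in RW-MS, against 7.84, 8.04 and 9.004 in RW-SC, and the groups overlapped. It was called against sidestream smoke in obese mice, where DIO-SS had 7.76, 7.89 and 8.07, at 0.72 ± 0.25 (limma adjusted p = 0.042), and this call was lost when any of 9 single arrays was left out, with 0.46 and adjusted p = 0.19 by limma without DIO-MS-1. Irf1, a factor induced early by interferon gamma, spread little, with 10.76, 10.97 and 11.67 in DIO-MS, and its difference from DIO-SC was 0.18 ± 0.11 (limma adjusted p = 0.25). The inhibitors Usp18, at 0.79 ± 0.34, and Socs1, at 0.42 ± 0.22, were likewise not called in DIO-MS against DIO-SC.

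**Figure D2:**
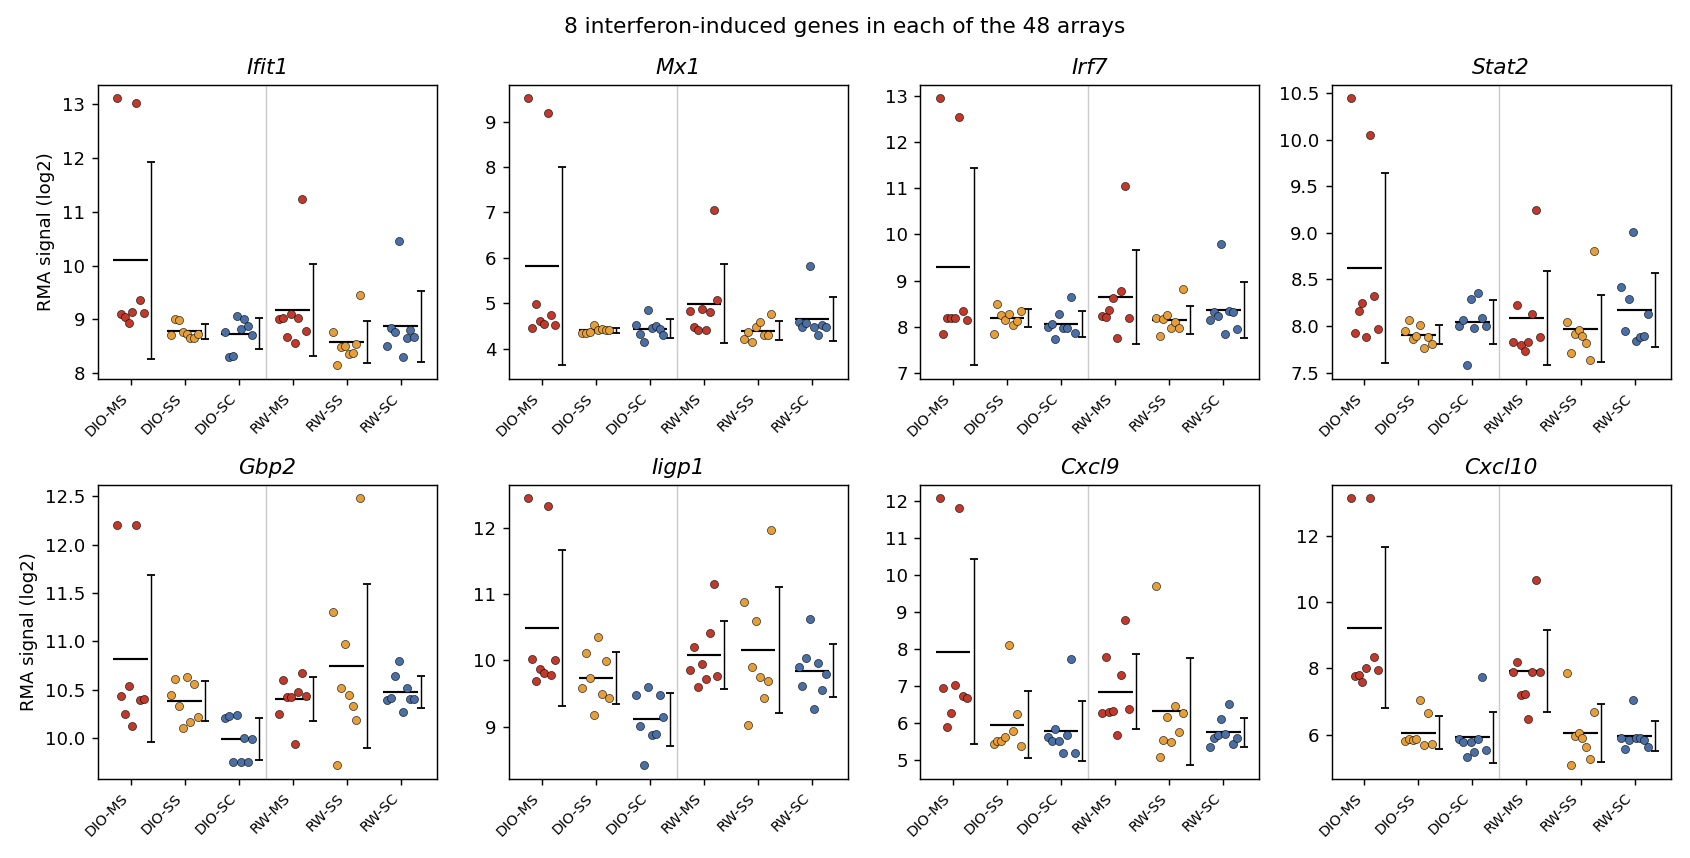
Log2 RMA signal of 8 interferon-induced genes in each array (points), by group, with 8 arrays a group, the group mean (line) and its SD (bar at the right of each group). In DIO-MS 2 points stand far above the other 6 in every panel, single points stand out in RW-MS, RW-SS and RW-SC, and Cxcl10 alone has most points of both mainstream smoke groups above the air groups.

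Of the 6 guanylate-binding proteins and immunity-related GTPases 5 were called higher in DIO-MS than in DIO-SC (11.7% of all genes). All 6 had a lower mean in DIO-SC than in RW-SC, by a median log2 difference of -0.43. Of these 0 were called by limma, where 5.99% of all genes were called lower. Iigp1, which disrupts parasite vacuoles, had 9.69, 9.94 and 12.46 in DIO-MS, against 8.42, 9.08 and 9.59 in DIO-SC. All 8 DIO-MS arrays lay above all 8 DIO-SC arrays, with a difference of 1.39 ± 0.34, 2.61-fold (limma adjusted p = 0.0022). Without DIO-MS-1 and DIO-MS-6 it was 0.75 ± 0.28, 1.68-fold (limma adjusted p = 0.065).

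In regular weight mice Iigp1 had 9.60, 9.90 and 11.16 in RW-MS, against 9.27, 9.85 and 10.63 in RW-SC, and the groups overlapped. Its level in obese air lungs was the lowest of the 6 groups, at a mean of 9.11 ± 0.40 in DIO-SC, against 9.85 ± 0.40 in RW-SC (SD, n = 8 each), and the difference between these was -0.74 ± 0.34 (limma adjusted p = 0.18). The mean of DIO-SS was 9.74 ± 0.39 (SD, n = 8), 0.63 ± 0.34 above DIO-SC (limma adjusted p = 0.27), with 4 of 8 arrays above every DIO-SC array. Iigp1 had a second probe set, which gave 1.46 ± 0.32 for DIO-MS against DIO-SC.

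Gbp2, which coats such vacuoles, was also lowest in DIO-SC. It had 10.13, 10.42 and 12.20 in DIO-MS, against 9.75, 9.998 and 10.24 in DIO-SC, with a difference of 0.83 ± 0.25 (limma adjusted p = 0.013) and 0.37 ± 0.21 (limma adjusted p = 0.26) without the 2 arrays. All 8 DIO-SC arrays lay below all 8 RW-SC arrays, which had 10.27, 10.41 and 10.80, so that the medians of DIO-MS and RW-SC were alike while DIO-SC was low. The difference of DIO-SC from RW-SC was -0.49 ± 0.25 and was not called by limma over all 48 arrays (adjusted p = 0.24), but was by the exact rank sum test, which uses these 16 arrays alone (adjusted p = 0.014). The other GTPases called in DIO-MS against DIO-SC were Gbp3 at 0.94 ± 0.32, Irgm1 at 0.79 ± 0.27 and Ifi47 at 0.70 ± 0.26 (a call lost when any of 32 single arrays was left out, with 0.46 and adjusted p = 0.18 by limma without DIO-MS-1), with Igtp at 0.68 ± 0.31 not called. Without DIO-MS-1 and DIO-MS-6 0 of the 6 were called there, near the 9.02% of all genes. In RW-MS against RW-SC 0 were, near the 6.61% of all genes.

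In air 34 of the 36 genes had a lower mean in DIO-SC than in RW-SC, with a median difference of -0.19, against -0.03 over all genes, and 0 were called by limma (8.28% of all genes were, in either direction, and 1 of the 36 had an unadjusted p below 0.05). The members of largest difference were Iigp1, Gbp2, Gbp3 (-0.46 ± 0.32), Ifit3 (-0.45 ± 0.28) and Dhx58 (-0.42 ± 0.31), and for the last 3 of these 7 of 8 DIO-SC arrays lay below every RW-SC array. When DIO-MS-1 and DIO-MS-6 were left out of the fit, which left the 2 air groups as they were and lowered the pooled spread, 4 genes were called lower in DIO-SC (Ifit3, Dhx58, Ifih1 and Ifi35), where 7.98% of all genes were. When DIO-SC-3, DIO-SC-7 and RW-SS-6 were left out as well, 0 were (9.55% of all genes in either direction). RW-SC-4, the regular weight air array on which 32 of the 36 genes were highest in its group, is in these values. Without it 28 of the 36 genes had a lower mean in DIO-SC, the median difference was -0.10, and 0 were called.

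Of the other induced proteins, Lgals3bp, a secreted glycoprotein, had 10.63, 10.83 and 12.83 in DIO-MS, against 9.87, 10.32 and 10.48 in DIO-SC, and all 8 arrays lay above. It is shown by level because it was among the genes still called without the high arrays, a choice made after its values were seen. Its difference was 0.999 ± 0.24, 2.00-fold (limma adjusted p = 0.0013), and 0.50 ± 0.17 (limma adjusted p = 0.034) without DIO-MS-1 and DIO-MS-6. When DIO-SC-3, DIO-SC-7 and RW-SS-6 were left out as well, 1 of the 36 genes was still called, and Lgals3bp was not. In RW-MS it had 10.42, 10.56 and 12.17, against 9.99, 10.19 and 11.04 in RW-SC. That difference of 0.55 ± 0.24 (limma adjusted p = 0.11) was called when DIO-MS-1 and DIO-MS-6 were out of the fit (limma adjusted p = 0.0094). Parp14, a poly(ADP-ribose) polymerase family member, was also called in DIO-MS against DIO-SC, at 0.73 ± 0.19 (limma adjusted p = 0.0040), while Rtp4 (0.72 ± 0.31) and Ifi35 (0.32 ± 0.14) were not.

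**Figure D3:**
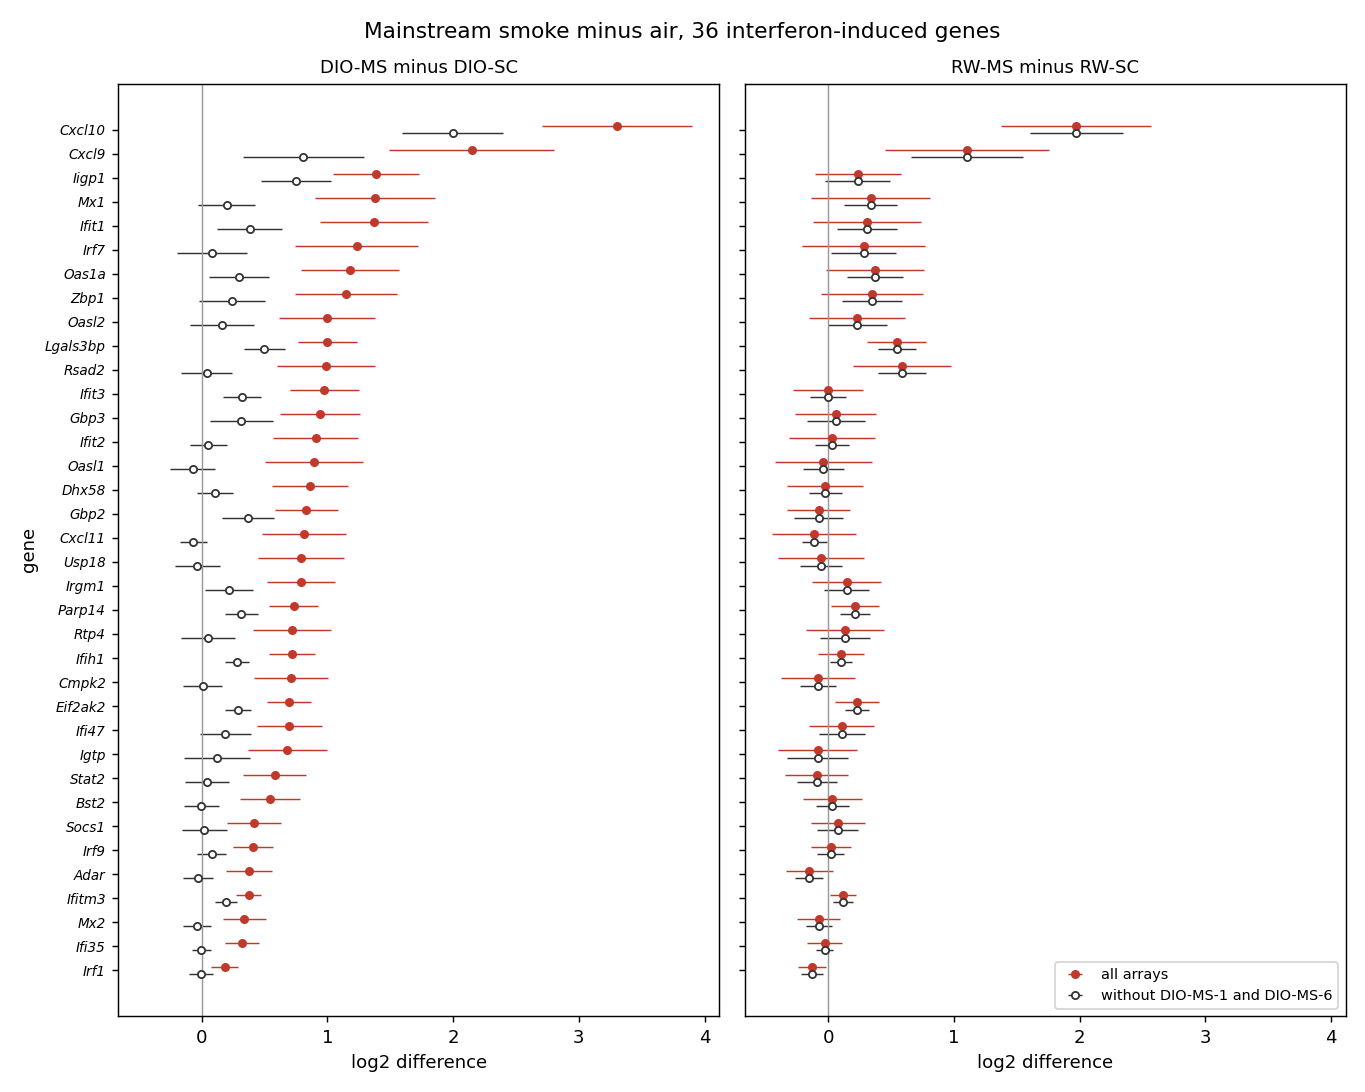
Log2 difference of each of the 36 genes (rows, ordered by the obese difference) with its standard error, for DIO-MS minus DIO-SC (left) and RW-MS minus RW-SC (right), from all arrays (red) and without DIO-MS-1 and DIO-MS-6 (white). In obese mice the white points have a median of 0.14 and the red points of 0.80, while the white point of Cxcl10 is at 2.00; in regular weight mice both points are at the same place and the white ones have the smaller errors.

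Between the diets, the test of how far the mainstream smoke response differed called 0 of the 36 genes (0.888% of all genes in either direction). All 36 differences were positive, with a median of 0.77, and 6 had an unadjusted p below 0.05. Without DIO-MS-1 and DIO-MS-6 the median was 0.05, 24 of 36 were positive and 0 had an unadjusted p below 0.05. RW-MS-7, the high array of the regular weight mainstream smoke mice, was kept in that fit. For sidestream smoke 0 of 36 were called (0.654% of all genes), 0 had an unadjusted p below 0.05, and the median was 0.12. Without RW-SC-4 the sidestream median was 0.02, without RW-SS-2 0.07 and without RW-SS-8 0.20. These comparisons share their air groups with those above.

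The spread between mice differed between the groups. The SD over the 8 arrays of DIO-MS had a median of 1.17 over the 36 genes, and lay between 0.34 and 2.51; every one of the 36 genes had its largest SD in this group. Without DIO-MS-1 and DIO-MS-6 the median SD of DIO-MS was 0.12. In the other groups the median SD was 0.14 in DIO-SS, 0.22 in DIO-SC, 0.50 in RW-MS, 0.30 in RW-SS and 0.31 in RW-SC.

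DIO-MS-1 and DIO-MS-6 lay above each of the other 6 DIO-MS arrays for 36 of 36 genes, where 23.4% and 23.1% of all genes did so, and 34 of the genes stood more than 1 log2 unit above the next array. They were the 2 highest of all 48 arrays for 32 of the 36. Over the 3 chemokines the median height above the other 6 arrays was 5.26 in DIO-MS-1 and 5.12 in DIO-MS-6, over the 12 antiviral effectors 3.41 and 3.30, and over the 6 GTPases 2.30 and 2.19. The smallest rise was in Ifitm3, 0.68 in DIO-MS-1, and the largest in Cxcl9, 5.37, which is 41.5-fold. These arrays were picked for their values, so no test is attached to them.

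Markers of several immune cell types, though not of alveolar macrophages, were high on DIO-MS-1 and DIO-MS-6. All 11 T cell markers measured and all 9 NK cell markers lay above the other 6 DIO-MS arrays on both, with median rises of 1.66 and 1.09 for T cells and 0.87 and 0.74 for NK cells. Of the 9 inflammatory monocyte markers 8 lay above on each, with median rises of 1.53 and 1.13, and of the 12 neutrophil markers 9 and 10 did, with 0.94 and 1.14. Plasmacytoid dendritic cell markers lay above for 6 and 7 of 8 (this list holds the member Bst2 and the signalling gene Irf8). MHC class II and dendritic cell markers did so for 6 of 8 on each, and B cell markers for 7 and 4 of 10. Alveolar macrophage markers lay above for 1 and 0 of 10 and below for 3 and 7, with median differences of -0.09 and -0.18. Thymocyte markers had median differences of 0.05 and 0.06, and of the 10 endothelial markers 10 and 8 lay below the other arrays. Over the 48 arrays the mean signal of the T cell list was 7.24, 7.35 and 8.81 in DIO-MS (lowest, median and highest), against 7.12, 7.34 and 11.15 in DIO-SC, whose highest array was DIO-SC-7. The part of these cells in the interferon-induced signal was not tested.

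RW-MS-7 stood apart in the same direction at a lower height. It lay above the other 7 RW-MS arrays for 34 of the 36 genes (10.6% of all genes), with a median of 1.32 above their median. Irf7 was highest, at 11.05 where the other 7 had a median of 8.23 (7.02-fold), followed by Cxcl10 (6.85-fold) and Cxcl9 (5.50-fold), and Oasl2, Oas1a and Mx1 were 4.90-fold, 4.79-fold and 4.72-fold above. Irf1 and Cxcl11 were not raised, at -0.15 and 0.11. On RW-MS-7 the 11 T cell and 9 NK cell markers had median differences of -0.20 and -0.17 from the other 7 arrays, and the 10 B cell markers -0.44, whereas 6 of 9 inflammatory monocyte and 4 of 10 alveolar macrophage markers lay above the other 7 arrays, each list with a median of 0.58. Endothelial markers lay below for 6 of 10, with a median of -0.27, and MHC class II and dendritic cell markers for 5 of 8, with a median of -0.22.

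RW-SC-4, a mouse in filtered air, lay above the other 7 arrays of its group for 32 of the 36 genes (7.63% of all genes), with a median of 0.84. Ifit1 was 3.45-fold, Oas1a 3.38-fold, Irf7 2.91-fold and Oasl2 2.88-fold above the median of the other 7. Irf1, Cxcl11 and Socs1 were close to it, at 0.04, 0.05 and 0.09. Of the 10 B cell markers 9 lay above the other 7 arrays, with a median of 0.40, as did 6 of 9 NK cell markers, with 0.31, and 5 of 8 MHC class II and dendritic cell markers, with 0.17, while neutrophil and inflammatory monocyte markers had medians of -0.03 and 0.01.

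RW-SS-8 and RW-SS-1 showed another order of roles. On RW-SS-8 32 of the 36 genes lay above the other 7 RW-SS arrays (13.9% of all genes), but the 6 GTPases had a median of 2.10 above the others and the 12 antiviral effectors 0.48. Igtp was at 12.55, 4.76-fold over the median of the other 7, Iigp1 4.70-fold, Gbp3 4.49-fold and Gbp2 4.10-fold, and for Gbp2, Igtp and Ifi47 this array and DIO-MS-1 were the 2 highest of the 48. The 3 chemokines had a median of 0.52, and none of them was highest in its group there. Of the 8 MHC class II and dendritic cell markers 5 lay above the other 7 arrays on RW-SS-8, with a median of 0.36, as did 3 of 9 NK cell markers, with 0.49, and 4 of 8 plasmacytoid dendritic cell markers, with 0.33, while T cell markers had a median of -0.06.

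On RW-SS-1 the chemokines led instead. Cxcl9 was at 9.72, 15.5-fold over the median of the other 7, Cxcl10 3.91-fold, and Cxcl11 also lay above all 7. The 6 GTPases had a median of 0.81 and the 12 antiviral effectors 0.11, and 3 of the 36 genes lay above the other 7 arrays in all (14.1% of all genes). On this array 4 of 9 NK cell markers lay above the other 7, with a median of 0.60, and 1 of 8 MHC class II and dendritic cell markers did, with 0.32, while T cell markers had a median of 0.11. The part of these cells in the values of RW-MS-7, RW-SC-4, RW-SS-8 and RW-SS-1 was not tested. Among obese lungs Cxcl9 was at 8.10 in DIO-SS-5, where the median of the group was 5.57, and DIO-SC-7 had the highest Cxcl9, Cxcl10 and Socs1 of its group.

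**Figure D4:**
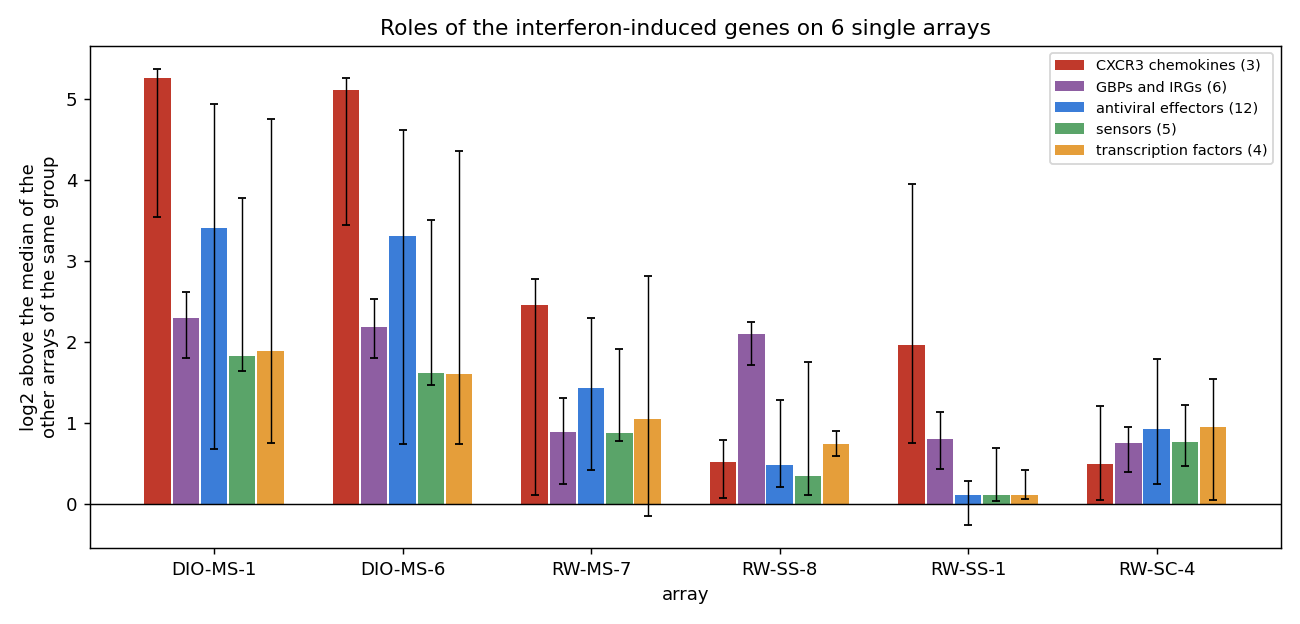
Median log2 height of 5 roles above the other arrays of the same group (bars, with the lowest and highest gene of the role as lines) on 6 single arrays, chosen for their high values; DIO-MS-1 and DIO-MS-6 are set against the other 6 arrays and the rest against the other 7. The antiviral effector bar is above the GTPase bar on DIO-MS-1, DIO-MS-6, RW-MS-7 and RW-SC-4 and below it on RW-SS-8 and RW-SS-1.

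Of a list of 20 interferon genes 10 were measured. In DIO-MS against DIO-SC 0 of the 10 were called, where 11.7% of all genes were called higher. In RW-MS against RW-SC 0 were, where 6.61% of all genes were called higher. A count of 0 of 10 is near these shares. In each of the 2 comparisons 0 also had an unadjusted p below 0.05 by limma. Ifng, which encodes interferon gamma, had 3.73, 4.08 and 6.33 in DIO-MS, against 4.01, 4.26 and 4.48 in DIO-SC. The 2 high DIO-MS values were DIO-MS-1 at 6.33 and DIO-MS-6 at 5.97, and no other DIO-MS array was above 4.24. In RW-SS it was 5.52 in RW-SS-1 and 5.59 in RW-SS-4 and at most 4.33 in the other 6, while RW-SS-8 had 4.33, RW-MS-7 had 4.13 and RW-SC-4 had 4.58, inside the range of their groups. Ifnb1, which encodes interferon beta, lay between 4.90 and 5.70 in all 48 arrays.

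Of 16 interferon receptor and signalling genes measured (18 listed), 10 were called higher and 0 lower in DIO-MS against DIO-SC, where 11.7% of all genes were called higher. In RW-MS against RW-SC 4 were called higher and 1 lower (6.61% and 8.07% of all genes), and 11 were not called. In DIO-MS against DIO-SC 8 were called higher when DIO-MS-1 and DIO-MS-6 were left out (9.02% of all genes). Socs3, an inhibitor of cytokine signalling, rose by 1.01 ± 0.17 in DIO-MS and by 0.99 ± 0.17 in RW-MS. Ifnar2, a subunit of the type I interferon receptor, rose by 0.53 ± 0.06 and 0.22 ± 0.06, and Ptpn2, a phosphatase of JAK and STAT proteins, by 0.49 ± 0.09 and 0.54 ± 0.09. Ifngr2, a subunit of the interferon gamma receptor, rose by 0.47 ± 0.08 in DIO-MS, and Ifngr1, the ligand-binding subunit, was lower by -0.16 ± 0.06 in RW-MS. All of these had limma adjusted p values between 5.7e-10 and 0.047.

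Genes that act upstream of interferon production gave 8 calls higher and 0 lower of 14 measured (18 listed) in DIO-MS against DIO-SC, where 11.7% of all genes were called higher. On DIO-MS-1 and DIO-MS-6 11 and 10 of the 14 lay above the other 6 arrays, and without these arrays 6 were called higher (9.02% of all genes). In RW-MS against RW-SC 2 were called higher and 1 lower (6.61% and 8.07% of all genes), and 4 and 1 when the 2 obese arrays were out of the fit (7.43% of all genes called higher). In DIO-MS the largest were Irf5 at 0.86 ± 0.12, Sting1, which signals for foreign DNA, at 0.82 ± 0.12, the RNA receptor Tlr7 at 0.71 ± 0.12 and its adaptor Myd88 at 0.53 ± 0.10. All 4 of these were also called without DIO-MS-1 and DIO-MS-6, at 0.61, 0.53, 0.49 and 0.30. In RW-MS Tlr7 (0.35 ± 0.12) and Myd88 (0.35 ± 0.10) were higher and Irf3 (-0.16 ± 0.05) lower. In air Irf5 (-0.40 ± 0.12) and Unc93b1 (-0.32 ± 0.08), which carries Toll-like receptors to endosomes, were called lower in DIO-SC than in RW-SC, 2 of the 14 where 5.99% of all genes were.

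A second list of 62 interferon-stimulated genes outside the 40, of which 46 were measured, gave 21 calls higher and 0 lower in DIO-MS against DIO-SC (11.7% of all genes called higher). With DIO-MS-1 and DIO-MS-6 left out there were 6 of 46, near the 9.02% of all genes, and in RW-MS against RW-SC 2 of 46, near the 6.61% of all genes. Those 2 were Ifitm1, a relative of Ifitm3, at 0.43 ± 0.13, and Ifi30, a lysosomal thiol reductase used in antigen presentation, at 0.32 ± 0.08. In DIO-MS they stood at 0.75 ± 0.13 and 0.78 ± 0.08, and at 0.58 and 0.66 without the 2 arrays. Ms4a4c, which is also on the list of inflammatory monocyte markers, stood at 0.92 ± 0.32 in DIO-MS and at 0.10 without them.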

How the data were processed

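RMA log2 values as deposited by the authors were used, the method being named in the submitters' processing notes. Its version, and whether all arrays went through it in 1 run, is not given in the sources used here. RMA puts arrays on a common distribution, and no raw scans were used, so its background correction could not be varied. Array medians lay between 7.82 and 7.94, and 8 arrays a group limit the precision.

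Of 22690 probe sets, 64 were controls, 1555 others had no symbol in GEO's platform annotation, 691 had several and 20380 with 1 symbol were used. Each gene took its brightest probe set by the mean of all arrays, which left 12393 genes, with no filter on dim genes. Of the 36 members, 25 used a probe set specific to 1 transcript group and 11 one that matches several transcripts of the gene. Probe sets of 1 gene disagreed for Cxcl11 and Dhx58, where a dimmer probe set showed no change in DIO-MS.

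A mean per group was fitted over all 48 arrays with limma 3.58.1 in R 4.3.3 (lmFit, then eBayes without trend), so the groups share 1 estimate of the spread, and 9 contrasts were tested, two-sided. P-values were Benjamini-Hochberg adjusted over the 12393 genes within each contrast and called at 0.05. The fit and the rank sum test were run on simulated data with 1 SD per gene shared by all groups. Those data lacked the unequal spread of the groups seen here, so the run does not show how the fit behaves under it. Alternatives were array centring, leaving out arrays, array weights, the mean of all probe sets, a filter at a group mean of 6, eBayes with trend and robust, the groups of a comparison alone, an exact rank sum test, and the replicate number as a block. Replicate numbers did not pair the mice: over 120 pairs of same-numbered arrays the median correlation of deviations from group means was 0.04, and 42 were over 0.1. The labels call the mice biological replicates.

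The members, roles and other lists were chosen with earlier results of these data known. Every member could be named. Levels are given for the 3 members of largest difference among those called in a contrast and for Ifit1, Irf7, Cxcl9, Cxcl10, Mx1, Gbp2 and Stat2; Isg15, also meant for this, was not analysed here, and Cxcl11, Irf1, Ifih1 and Lgals3bp were added after their values were seen. Of other lists up to 4 called genes were named, by largest difference, and any interferon or receptor gene. Ms4a4c, Bst2 and Irf8 are among the genes that stand on 2 lists. Promoters were the 250 bases before each RefSeq start on GRCm38.p6. Per-sample columns left unused numbered 0.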

Additional observations from a re-analysis of the deposited data

Results flagged for a closer look

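Within groups of 8, single arrays stood far from the others in members shown by level: the gap to the nearest array, over the range of the group, passed Dixon's critical value for 8 arrays. On RW-MS-7 this held for Ifit1 (0.804), Mx1 (0.747), Irf7 (0.689), Stat2 (0.675) and Cxcl10 (0.585). On RW-SC-4 it held for Mx1 (0.807), Cxcl10 (0.77), Ifit1 (0.753) and Irf7 (0.744). On RW-SS-8 it held for Stat2 (0.653) and Irf7 (0.562), and on RW-SS-1 for Cxcl9 (0.7). In obese lungs Cxcl10 (0.771) and Cxcl9 (0.738) stood out on DIO-SC-7, the array with thymocyte markers, and Cxcl9 (0.684) on DIO-SS-5. Over all 36 members 60 of 216 groups passed, 25 of them on RW-MS-7 and 19 on RW-SC-4. The critical value passes about 5% of independent groups by chance. The members are read on the same arrays, so 1 array can pass in many of them at once. The count is therefore a description and not a test. In DIO-MS none passed, because DIO-MS-1 and DIO-MS-6 lie near each other and the ratio looks at 1 array alone.

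The diets differed in the response to mainstream smoke, by the test of the difference itself, for 2 genes outside the 40. Ifi30 differed by 0.46 (limma adjusted p = 0.028), with means of 11.76 in DIO-MS and 10.98 in DIO-SC, and of 11.53 in RW-MS and 11.20 in RW-SC. Ifnar2 differed by 0.306 (limma adjusted p = 0.048), with means of 10.84 in DIO-MS and 10.31 in DIO-SC, and of 10.69 in RW-MS and 10.47 in RW-SC. Neither was called without DIO-MS-1 and DIO-MS-6.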

How the results depend on the processing

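Counts of members called are given below by setting. The share of all genes called in that direction follows in brackets for some settings. For the rest a count shows only how far the calls moved. Without DIO-MS-1 and DIO-MS-6 there were 3 in DIO-MS against DIO-SC, 3 in RW-MS against RW-SC, 4 in DIO-SC against RW-SC, 1 in DIO-MS against DIO-SS and 5 in RW-MS against RW-SS. Leaving out DIO-SC-3, DIO-SC-7 and RW-SS-6 as well gave 1 in DIO-MS against DIO-SC, 3 in RW-MS against RW-SC and 1 in DIO-MS against DIO-SS, all higher. In RW-MS against RW-SS it gave 3 higher and 1, Igtp, lower. The Ifit2 difference in DIO-MS against DIO-SC changed sign, to -0.002 (limma adjusted p = 0.997). Leaving out only DIO-SC-3, DIO-SC-7 and RW-SS-6 gave 14 and 13 higher in DIO-MS against DIO-SC and against DIO-SS. Array weights gave 3 higher in DIO-MS against DIO-SC and 3 higher in DIO-MS against DIO-SS. In RW-MS against RW-SS they gave 2 higher and 1 lower.

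Fitting only the groups of a comparison left fewer arrays behind the spread. It gave 2 higher in DIO-MS against DIO-SC, 2 in RW-MS against RW-SC and 3 in DIO-SS against DIO-SC. It also gave 2 higher in DIO-MS against DIO-SS, 2 in RW-MS against RW-SS, and 2 lower in DIO-SC against RW-SC. The exact rank sum test gave 15 higher in DIO-MS against DIO-SC (7.06% of all genes). It gave 3 higher in RW-MS against RW-SC and 3 in RW-MS against RW-SS, near the 7.34% and 7.05% of all genes. In DIO-SC against RW-SC 2 were lower (2.24%), and in DIO-SS against DIO-SC 2 were higher (2.94%). The cause of the changes between settings was not tested.

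With 1 array left out, the count ran from 8 (without DIO-MS-1 or DIO-MS-6) to 26 (without DIO-MS-5 or DIO-MS-8) in DIO-MS against DIO-SC, from 2 to 16 in DIO-MS against DIO-SS, from 0 (without RW-MS-7) to 1 in RW-MS against RW-SC and from 0 to 2 in RW-MS against RW-SS, and was 0 in the other comparisons. Of the 19 calls in DIO-MS against DIO-SC 8 were kept in all 48 such fits: Cxcl10, Eif2ak2, Ifih1, Ifit3, Ifitm3, Iigp1, Lgals3bp and Parp14. The replicate block gave 17 in DIO-MS against DIO-SC and changed no other count; the numbers are shared by name only. Centring each array, the mean of all probe sets, the filter on dim genes and eBayes with trend and robust kept every count within 1.5 times. RMA removes differences in overall brightness, and members near the lower end of the scale, such as Mx1 and Cxcl11 in air, may have changed below what the arrays can show.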
